A study of Mus musculus with 36 samples.

Results

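The comparison set tumours with silenced CD36 (shCD36) against tumours with a non-targeting short hairpin RNA (PLKO), both grown from cells of VDH15, labelled an oral carcinoma cell line, as orthotopic xenografts in mice on a diet rich in palmitic acid, in the second of 2 VDH15 experiments. Its members were chosen by diet, hairpin and experiment, which gave 6 of the 36 arrays of the series, 3 with shCD36 and 3 with PLKO. RNA came from the neural fraction of the tumour stroma, amplified and hybridised to Affymetrix mouse arrays, and the values are on a log2 scale, so that a difference of 1 is a 2-fold change. The hosts were NSG mice, which lack mature T, B and NK cells, and the hairpins were carried by the human tumour cells, not by the mouse cells whose transcripts the arrays were designed for. The groups used beside these 6 arrays were shCD36 and PLKO tumours of the same experiment on a control diet, and shCD36 and PLKO tumours of the established oral squamous carcinoma line SCC25 on the palmitic acid-rich and the control diet, with 3 arrays each. The groups of the first VDH15 experiment were PLKO tumours on a control, a palmitic acid-rich and an oleate diet. They entered the choice of probe sets, the filter on mean level, and the alternatives with all 36 arrays or all 11 averages. The labels call the 3 arrays of a group technical replicates of 1 biological replicate, so n = 1 biological replicate a side. Every p-value below, except in the test on averages of both experiments, measures the spread between technical replicates and not between tumours or mice. In that test the spread is among averages from experiments that differ in cell line, hybridisation batch and tumour. An exact two-sided permutation test of 3 arrays against 3 cannot go below p = 0.1.

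CD36 is a membrane protein that takes up long-chain fatty acids, and palmitic acid is the main saturated one in the diet. The neural fraction of a tumour can hold Schwann cells, the glia that wrap peripheral axons and that, after injury, turn to a repair state in which they secrete cytokines, growth factors and matrix. The question posed by the design is which genes of the neural stroma differ when CD36 is silenced in the tumour cells and the diet is rich in palmitic acid.

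The labelled fraction was set against marker genes. Sox10, the transcription factor that defines Schwann cells, was at 6.90, 6.78 and 6.88 in the shCD36 arrays, against 6.86, 6.96 and 6.94 in the PLKO arrays, and the peripheral myelin gene Pmp22 was at 9.85, 9.79 and 9.81 in the shCD36 arrays, against 9.66, 9.61 and 9.64 in the PLKO arrays. S100b, another Schwann cell gene, lay below the floor of 5.19 that separated the 12823 genes tested from the lowest 25%. Krt5 and Krt14, the keratins of basal epithelium, were far brighter on their own probe sets, Krt5 at 12.59, 12.54 and 12.54 in the shCD36 arrays, against 12.62, 12.54 and 12.61 in the PLKO arrays. The basal keratinocyte list had a median level of 10.90 to 10.94 in the shCD36 arrays and 11.02 to 11.29 in the PLKO arrays, and the Schwann cell list one of 7.63 to 7.67 in the shCD36 arrays and 7.73 to 7.89 in the PLKO arrays; levels of different probe sets are not comparable as amounts of RNA. Whether transcripts of the human tumour cells also bound to these arrays was not tested. Markers of skeletal muscle were dim, with a median level of 5.55 to 5.78 in the shCD36 arrays and 5.51 to 5.84 in the PLKO arrays. In bulk RNA, fewer cells of a type and less RNA per cell cannot be told apart.

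Mouse Cd36 was dim and was not called, at 5.26, 5.17 and 5.28 in the shCD36 arrays, against 5.42, 5.27 and 5.39 in the PLKO arrays, with a difference of -0.13 ± 0.14 (SE; adjusted p = 0.563). Because the hairpin was in human cells, this probe set does not check the labels.

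One array stood apart. On principal component 1 of the 12 arrays of the experiment, which held 51.74% of the variance, the shCD36 arrays on the palmitic acid-rich diet scored -16.85, -15.5 and -17.25, against 54.6, 17.24 and 20.48 for PLKO arrays 1, 2 and 3. PLKO array 1 had a mean correlation of 0.972 with the other arrays of its group, and PLKO arrays 2 and 3 had 0.981 and 0.982. It lay on the same side of the shCD36 arrays as its 2 replicates, but farther out, and the main results are given with and without it.

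**Figure D1:**
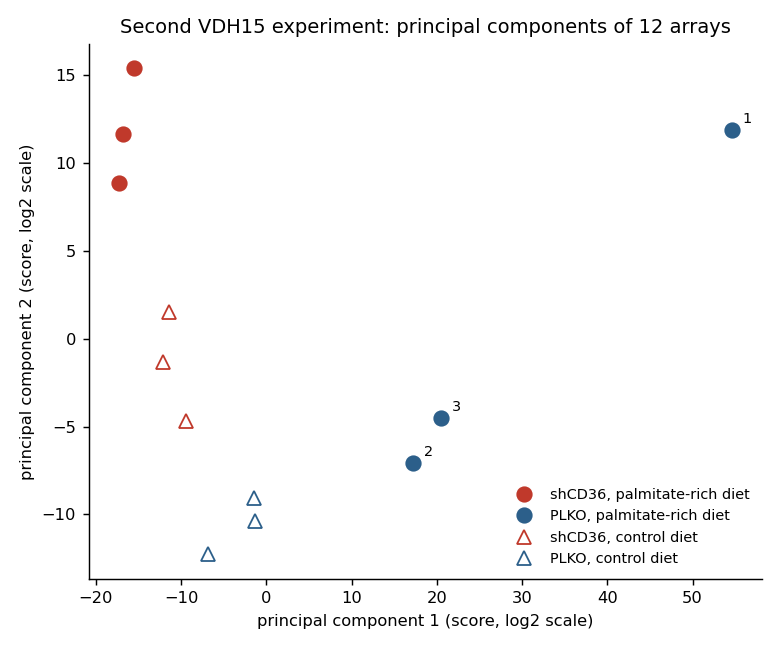
Scores of the 12 arrays of the second VDH15 experiment on principal components 1 and 2 (log2 scale); filled circles are the palmitic acid-rich diet, open triangles the control diet, red shCD36 and blue PLKO, with the number of each PLKO array on the palmitic acid-rich diet. The 3 shCD36 arrays on the palmitic acid-rich diet sit between -17.25 and -15.5 on component 1, and PLKO array 1 sits at 54.6.

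On the palmitic acid-rich diet, 18 of 20 endothelial genes, 14 of 17 interferon genes and 18 of 24 cell cycle genes were called lower with shCD36. So were 12 of 18 collagens, 14 of 19 matrix glycoproteins and cross-linking enzymes, and 13 of 18 matrix proteases and inhibitors. Of genes of the differentiated epithelium 8 of 21 were called higher, with a median difference of 1.33 that was 0.63 without PLKO array 1, and of genes of fatty acid use 7 of 19 were called higher and 2 lower. Of 12823 genes, 1551 were called higher (12.1% of the genes tested) and 1652 lower (12.9%) in shCD36, at an adjusted p under 0.05 from limma. The 3 shCD36 arrays lay wholly above the 3 PLKO arrays for 2625 genes (20.5%) and wholly below them for 2432 (19%). Differences of more than 1 on the log2 scale were called for 176 genes that were higher and 331 that were lower, and the median difference of all genes was 0.01. Without PLKO array 1, 1193 genes were called higher and 1404 lower, and 1088 and 1311 of these were among the calls above. All 3203 genes called kept the sign of their difference without that array.

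Ifit2, an interferon-induced protein that binds viral RNA, had the lowest difference and was at 6.71, 6.41 and 7.01 in the shCD36 arrays, against 10.23, 9.68 and 10.16 in the PLKO arrays. All shCD36 arrays lay more than 2 log2 units below every PLKO array, and the difference was -3.31 ± 0.17 (SE; adjusted p = 3.1e-06), with -3.21 without PLKO array 1. Acod1, the enzyme that makes itaconate in activated macrophages, was at 6.37, 6.66 and 6.79 in the shCD36 arrays, against 10.18, 9.47 and 10.03 in the PLKO arrays. Its groups were as far apart, with a difference of -3.29 ± 0.22 (SE; adjusted p = 4.9e-06). Reln, the secreted glycoprotein reelin that guides neurons and is also made by lymphatic endothelium, was at 7.08, 7.35 and 7.47 in the shCD36 arrays, against 11.12, 9.90 and 10.05 in the PLKO arrays, a difference of -3.06 ± 0.25 (SE; adjusted p = 1.5e-05). Sema3a, a secreted repellent of growing axons, was at 5.45, 5.31 and 5.34 in the shCD36 arrays, against 9.63, 7.60 and 7.76 in the PLKO arrays. PLKO array 1 was the highest of the PLKO arrays for both Reln and Sema3a, and without it the differences were -2.67 and -2.31. Rsbn1l differed by -3.19 and Scn3a, a voltage-gated sodium channel of neurons, by -2.52.

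Calcrl, the receptor for adrenomedullin and for the neuropeptide CGRP, was at 5.20, 5.52 and 5.84 in the shCD36 arrays, against 8.91, 7.65 and 7.72 in the PLKO arrays, a difference of -2.57 ± 0.30 (SE; adjusted p = 0.00012). Mmrn1, a secreted glycoprotein of platelets and endothelium, differed by -2.54, and Ackr2, a scavenger receptor for chemokines on lymphatic endothelium, by -2.37. None of these groups overlapped, which was a condition for naming the genes with the lowest differences. Cxcl11 and Ccl5, chemokines for T cells, differed by -2.53 and -2.41, and Mmp3, a metalloproteinase that degrades matrix, was at 9.63, 8.99 and 9.17 in the shCD36 arrays, against 12.65, 11.39 and 10.96 in the PLKO arrays. Fgl2 differed by -2.39, the amino acid transporter Slc38a4 by -2.37, and Lcn2, the iron-siderophore binding protein lipocalin 2, by -2.30.

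Of the 15 genes with the highest differences, chosen among those called with no overlap of arrays, 3 were in the differentiated epithelium list, Sprr3, Spink5 and Rptn. Sprr3, a small proline-rich precursor of the cornified envelope, was at 7.06, 6.16 and 6.66 in the shCD36 arrays, against 1.75, 3.78 and 4.28 in the PLKO arrays. The shCD36 arrays all lay above the PLKO arrays, of which array 1 was lowest, and the difference was 3.35 ± 0.49 (SE; adjusted p = 0.00052), or 2.59 without that array (adjusted p = 2.6e-05). All PLKO values of Sprr3 and of Sprr2i lay under 5.19, the floor that a gene had to pass by its mean over all arrays, so the size of their differences rests on dim values and is uncertain. Adam28, a membrane metalloproteinase, was at 8.66, 8.60 and 8.69 in the shCD36 arrays, against 5.76, 6.41 and 5.89 in the PLKO arrays, a difference of 2.63 ± 0.16 (SE; adjusted p = 4e-06) with little spread in either group. Pdk4, the kinase that shuts pyruvate out of oxidation when fatty acids are burned and a target of PPAR receptors, was at 6.97, 7.0 and 7.38 in the shCD36 arrays, against 3.31, 5.65 and 5.06 in the PLKO arrays. It was higher by 2.44 ± 0.42 (SE; adjusted p = 0.0015), and by 1.76 without PLKO array 1. Wfdc18 was at 7.45, 7.84 and 8.04 in the shCD36 arrays, against 6.35, 4.22 and 4.47 in the PLKO arrays, a difference of 2.76 ± 0.43 (SE; adjusted p = 0.00079), and here PLKO array 1 was the one nearest to the shCD36 arrays. PLKO arrays 1 and 3 for Pdk4, and 2 and 3 for Wfdc18, lay under the floor of 5.19. The size of their differences is therefore uncertain.

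S100a8, a subunit of the calprotectin dimer of neutrophils and stressed epithelium, was at 7.51, 8.06 and 7.82 in the shCD36 arrays, against 5.55, 5.14 and 5.79 in the PLKO arrays, a difference of 2.30 ± 0.32 (SE; adjusted p = 0.00041). Its partner S100a9 was at 8.28, 9.17 and 8.38 in the shCD36 arrays, against 7.18, 6.64 and 8.31 in the PLKO arrays, with 1 PLKO array inside the range of the shCD36 arrays, and its difference of 1.24 ± 0.38 (SE; adjusted p = 0.0336) lost its call without PLKO array 1 (1.14, adjusted p = 0.0871). Of 8 neutrophil genes tested, S100a8 and S100a9 were the 2 called higher and Lcn2 the 1 called lower, with a median of -0.05. Csf3r (-0.12), Mpo (-0.16), Ltf (-0.18), Camp (0.01) and Mmp9 (0.07) were not called. The other genes among the 15 highest were Sptssb (2.60), which sets the chain length that serine palmitoyltransferase accepts, the defensin Defb3 (2.55), Sprr2i (2.49), the protease inhibitor Spink5 (2.47), the cornified envelope protein Rptn (2.43), the serpin Serpinb3a (2.36), Nebl (2.23), the epithelial serine protease Tmprss11d (2.22), the fatty acyl reductase Far2 (2.16) and Wfdc5 (2.15). For 13 of these 15 genes the lowest of the 6 values was that of PLKO array 1, and for all 15 genes with the lowest differences that array had the highest value. Sptssb and Rptn lost their calls when any 1 of the shCD36 arrays was left out, and Wfdc5 when shCD36 array 1 or 3 was. With PLKO array 1 left out, the differences were 1.36 for Sptssb, 1.11 for Rptn, 1.32 for Serpinb3a and 1.21 for Wfdc5, each smaller by over 1.5 times.

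**Figure D2:**
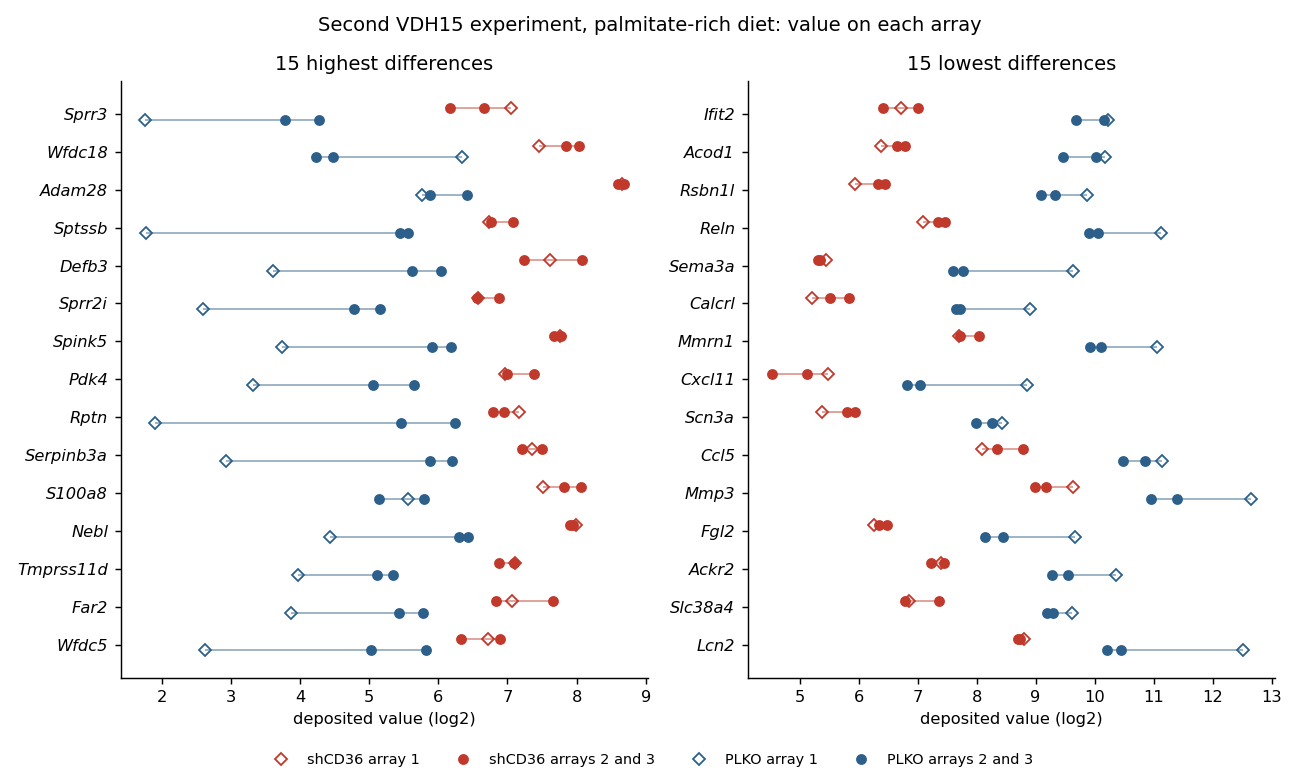
Deposited log2 value on each of the 6 arrays for the 15 genes with the highest (left) and the 15 with the lowest (right) shCD36 minus PLKO difference among those called with no overlap; red is shCD36, blue PLKO, open diamonds array 1 and filled circles arrays 2 and 3. For Sprr3 the shCD36 arrays sit between 6.16 and 7.06 and the PLKO arrays between 1.75 and 4.28, and for Ifit2 the shCD36 arrays lie below all PLKO arrays.

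Interferon-stimulated genes, which are switched on by secreted interferons and act against viruses, were lower with shCD36. Of 17 genes of the list tested, 14 were called lower and 1 higher, with a median difference of -0.85, against 0.01 for all genes. Without PLKO array 1 the median was -0.54, with 12 called lower and 1 higher. The median level of the list was 8.02 to 8.43 in the shCD36 arrays and 9.03 to 10.01 in the PLKO arrays. Rsad2, the antiviral enzyme viperin, was at 10.50, 10.37 and 10.92 in the shCD36 arrays, against 12.35, 12.14 and 12.21 in the PLKO arrays, a difference of -1.64 ± 0.12 (SE; adjusted p = 9.8e-06). Oasl1, a sensor-related protein of the oligoadenylate synthetase family, was at 7.10, 7.12 and 7.17 in the shCD36 arrays, against 9.70, 9.03 and 9.26 in the PLKO arrays, a difference of -2.20 ± 0.15 (SE; adjusted p = 5.2e-06). Ifit1 and Ifit3, which bind foreign RNA with Ifit2, differed by -1.36 and -1.52, the RNA sensor Ifih1 by -1.47, and Cmpk2, a nucleotide kinase, by -1.66. Stat2, a transcription factor of the interferon response, was at 9.74, 9.60 and 9.59 in the shCD36 arrays, against 10.59, 10.11 and 10.26 in the PLKO arrays. The exception was Oas2, which was higher by 0.58, and Mx1 (-0.22) and Oasl2 (-0.26) were not called.

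Promoters of the list were searched for the core of the interferon-stimulated response element, spelled GAAANNGAAA, on both strands, in windows of 300 bases (250 before to 50 after the start) from RefSeq on GRCm38.p6. It was found in 8 of the 13 list members with a promoter in the table, or 61.5%, against 3.99% of all 27025 genes with a promoter and 3.40% of the 10269 tested. Among all genes called lower 4.45% held it, and among those called higher 3.61%. No match was found for Ifit2, Oasl1, Cmpk2 and Irf7, which were called lower, or for Oasl2, which was not called. The list was written as interferon-stimulated genes, so its share describes the list and is not a result of these arrays. The stretches around the match are shown for the 4 list members with the lowest differences that held one before the start, in the direction of the gene, with the match in capitals; in all 4 it lies on the opposite strand, as TTTCNNTTTC.
Rsad2 (chr12:26456513-26456622, minus strand): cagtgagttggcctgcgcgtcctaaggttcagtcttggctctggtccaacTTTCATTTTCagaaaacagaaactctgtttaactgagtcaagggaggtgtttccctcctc
Ifit3 (chr19:34583323-34583432, plus strand): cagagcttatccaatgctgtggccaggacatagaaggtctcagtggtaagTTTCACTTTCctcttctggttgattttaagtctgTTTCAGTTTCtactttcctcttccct
Ifit1 (chr19:34640735-34640844, plus strand): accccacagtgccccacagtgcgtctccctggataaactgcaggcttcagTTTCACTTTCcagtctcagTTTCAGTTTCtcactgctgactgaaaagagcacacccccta
Gbp2 (chr3:142620554-142620662, plus strand): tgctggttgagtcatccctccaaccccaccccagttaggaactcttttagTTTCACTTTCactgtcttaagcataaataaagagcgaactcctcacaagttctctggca
Ifit3 and Ifit1 each held 2 matches in the stretch shown. Gbp2, a guanylate-binding protein induced by interferon, was at 8.06, 8.02 and 8.43 in the shCD36 arrays, against 10.01, 8.90 and 8.92 in the PLKO arrays, a difference of -1.11 ± 0.24 (SE; adjusted p = 0.0061).

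Cytokines and chemokines were lower more often than higher. Of 27 tested, 13 were called lower and 2 higher, with a median of -0.56 (-0.46 without PLKO array 1, with the same counts). Ccl5 was at 8.09, 8.35 and 8.79 in the shCD36 arrays, against 11.14, 10.49 and 10.85 in the PLKO arrays. Ccl7 and Ccl2, which draw monocytes, differed by -1.59 and -0.99, Cxcl10 by -0.94, Il6 by -1.04, Csf2 by -1.26 and Csf1, the growth factor of macrophages, by -1.06. Those that rose were Cxcl14 (1.16 ± 0.17 (SE; adjusted p = 0.00047)), a chemokine of resting epithelium, and Ccl20 (0.58). Il1b, with -0.17 ± 0.28 (SE; adjusted p = 0.724), and Il1a, with -0.09, were not called. Of 15 macrophage genes tested, 2 were called lower, the mannose receptor Mrc1 at 6.59, 7.64 and 6.90 in the shCD36 arrays, against 9.39, 8.54 and 9.04 in the PLKO arrays and the lipopolysaccharide co-receptor Cd14 (-0.81), and none higher, while Adgre1 and Itgam lay below the floor. The macrophage list's median level was 6.32 to 6.94 in the shCD36 arrays and 6.37 to 7.02 in the PLKO arrays, and the groups overlapped.

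Endothelial genes formed the list with the lowest median. Of 20 tested, 18 were called lower and none higher, with a median difference of -1.47 (-1.20, with 17 lower, without PLKO array 1). Kdr, the main receptor for the vascular growth factor VEGF-A, was at 8.43, 8.88 and 8.69 in the shCD36 arrays, against 11.02, 10.46 and 10.52 in the PLKO arrays, a difference of -2.0 ± 0.14 (SE; adjusted p = 7.1e-06). Cdh5, the cadherin of endothelial junctions, was at 10.02, 10.24 and 10.19 in the shCD36 arrays, against 12.51, 11.80 and 11.77 in the PLKO arrays. Pecam1, an adhesion molecule of the same junctions, was at 8.87, 8.79 and 9.01 in the shCD36 arrays, against 11.17, 10.40 and 10.31 in the PLKO arrays. The groups did not overlap for any of these 3 genes, and the median level of the list was 8.24 to 8.59 in the shCD36 arrays and 9.68 to 10.11 in the PLKO arrays. Prox1, the master regulator of lymphatic endothelium, was at 7.52, 7.86 and 7.99 in the shCD36 arrays, against 10.71, 9.77 and 9.63 in the PLKO arrays, a difference of -2.25 ± 0.23 (SE; adjusted p = 5.2e-05). The hyaluronan receptor Lyve1 differed by -1.54. In SCC25 neither was called, with -0.39 ± 0.29 (SE; adjusted p = 0.428) for Prox1 and 0.19 ± 0.10 (SE; adjusted p = 0.23) for Lyve1. The part of fewer endothelial cells in the differences of Reln, Calcrl, Mmrn1 and Ackr2 was not tested. Vwf (-0.46) and Flt1 (-0.21) were the members not called. Among genes of vascular development in other lists, Notch4 differed by -1.30, the Notch ligand Dll4 by -1.15, the semaphorin receptor Plxnd1 by -1.03, and the lipase inhibitor Angptl4 by -1.21. These are examples from lists that went both ways. Of 12 Notch genes 3 were called higher and 4 lower, and of 28 axon guidance genes 11 higher, among them Efnb2 (0.92), and 9 lower. Of 19 genes of fatty acid use 7 were called higher and 2 lower. Of 10 pericyte and smooth muscle genes, 2 were called lower, Mcam (-1.24) and Rgs5 (-1.24), and 1 higher, Notch3 (0.52, or 0.31 without PLKO array 1), a call lost without shCD36 array 1 or 3; without PLKO array 1, 5 were called lower.

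Collagens and other matrix genes were lower. Of 18 collagen genes tested, 12 were called lower and 1 higher, with a median of -1.09 (-0.76, with 11 lower, without PLKO array 1). Col1a1, the main fibrillar collagen of stroma, was at 11.78, 11.94 and 11.67 in the shCD36 arrays, against 13.74, 13.41 and 13.19 in the PLKO arrays, a difference of -1.65 ± 0.17 (SE; adjusted p = 5.1e-05). Col6a3, a chain of the microfibrillar collagen VI, was at 9.63, 10.44 and 9.51 in the shCD36 arrays, against 11.87, 12.29 and 12.12 in the PLKO arrays, a difference of -2.23 ± 0.37 (SE; adjusted p = 0.0012), and Col4a2, of basement membranes, was at 9.34, 9.31 and 9.64 in the shCD36 arrays, against 12.24, 11.48 and 11.32 in the PLKO arrays. Every PLKO array lay above every shCD36 array for these 3 genes. Col7a1, which anchors epithelium to the dermis, was the collagen that rose (0.43), and Col3a1 (-0.93 ± 0.35 (SE; adjusted p = 0.0719)) was not called.

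Of 19 matrix glycoproteins and cross-linking enzymes, 14 were called lower and none higher (median -0.90, and -0.71 with 13 lower without PLKO array 1). Lox, the enzyme that cross-links collagen, was at 9.52, 9.84 and 8.94 in the shCD36 arrays, against 12.38, 11.08 and 10.86 in the PLKO arrays, and Postn, a matricellular protein of activated fibroblasts, was at 9.54, 8.96 and 9.16 in the shCD36 arrays, against 11.64, 10.91 and 10.78 in the PLKO arrays. Their differences were -2.0 ± 0.37 (SE; adjusted p = 0.0022) and -1.89 ± 0.21 (SE; adjusted p = 8.1e-05). Fibronectin (Fn1) differed by -1.65, nidogen (Nid1) by -2.19, Thbs2 by -1.72 and the elastin gene Eln by -1.20. Of 18 proteases and inhibitors, 13 were called lower and none higher (median -1.11, and -0.91 with 14 lower without PLKO array 1). Timp3, an inhibitor of metalloproteinases, was at 9.11, 9.08 and 9.45 in the shCD36 arrays, against 11.79, 11.09 and 11.11 in the PLKO arrays, and Mmp14, a membrane metalloproteinase, differed by -1.13, so that enzymes and inhibitors were lower together.

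Of 15 fibroblast markers, 7 were called lower and none higher, with a median of -0.83, and the list's median level was 9.77 to 10.30 in the shCD36 arrays and 10.70 to 11.45 in the PLKO arrays. The list shares 5 tested genes with the matrix lists, and of the 10 in none of them 5 were called lower and none higher, with a median of -0.79. Vim, the filament protein of mesenchymal cells, was at 11.10, 11.32 and 11.16 in the shCD36 arrays, against 12.61, 12.31 and 12.29 in the PLKO arrays, a difference of -1.21 ± 0.11 (SE; adjusted p = 2.3e-05). Dcn (-0.20 ± 0.23 (SE; adjusted p = 0.593)), Dpt (-0.03 ± 0.67 (SE; adjusted p = 0.983)) and Lum (-0.59 ± 0.43 (SE; adjusted p = 0.36)), all abundant in fibroblasts, were not called, and Pdgfra lay below the floor. The part of fibroblasts, endothelium and pericytes in the matrix differences was not tested. Of 15 tested regulators of the mesenchymal state and the neural crest, 6 were called lower and 2 higher, with a median of -0.14. Without PLKO array 1 the median was -0.10, with 5 called lower and 1 higher. Among those of the mesenchymal state, Zeb1 was at 8.01, 8.38 and 8.22 in the shCD36 arrays, against 10.52, 9.98 and 9.94 in the PLKO arrays, a difference of -1.94 ± 0.16 (SE; adjusted p = 1.5e-05), Prrx1 differed by -1.21 and Zeb2 by -0.72, while Snai2 (0.19) and Twist1 (-0.14) were not called. Of the 20 TGF-beta genes, 8 were called lower and 3 higher: the ligands Tgfb1 (-0.98) and Tgfb3 (-1.60), the receptor Tgfbr2 (-0.90) and the target Ccn2 (-1.07) were lower, and Id1 (0.82), Smad7 (0.64) and Bmp2 (0.59) higher.

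Genes of differentiated epithelium had the highest median of the lists, and PLKO array 1 stood farthest from the others in this list. All 21 tested had a positive difference and 8 were called higher, with a median of 1.33. The list's median level was 7.56, 7.23 and 7.65 in the shCD36 arrays, against 4.17, 6.94 and 6.73 in the PLKO arrays. PLKO array 1 was lowest by more than 2 log2 units, and without it the median difference was 0.63 and 15 genes were called higher. Krt10, the keratin of the layers above the basal one, was at 7.50, 6.93 and 6.53 in the shCD36 arrays, against 3.66, 5.84 and 5.42 in the PLKO arrays, a difference of 2.02 ± 0.45 (SE; adjusted p = 0.0064), or 1.36 without PLKO array 1. Sprr1b differed by 1.43, or 0.63 without PLKO array 1. Ivl, the envelope protein involucrin, differed by 0.31 ± 0.07 (SE; adjusted p = 0.0097). Of 17 basal keratinocyte genes, 5 were called higher and 2 lower, with a median of 0.11. Epcam (0.48) and the plakophilin Pkp1 (0.42) rose, Itga6, a subunit of the integrin that binds laminin, had a difference of -0.33 ± 0.09 (SE; adjusted p = 0.0163). That call was lost without PLKO array 3 or shCD36 array 1. Krt5 and Krt14 had differences of -0.03 and 0.02.

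**Figure D3:**
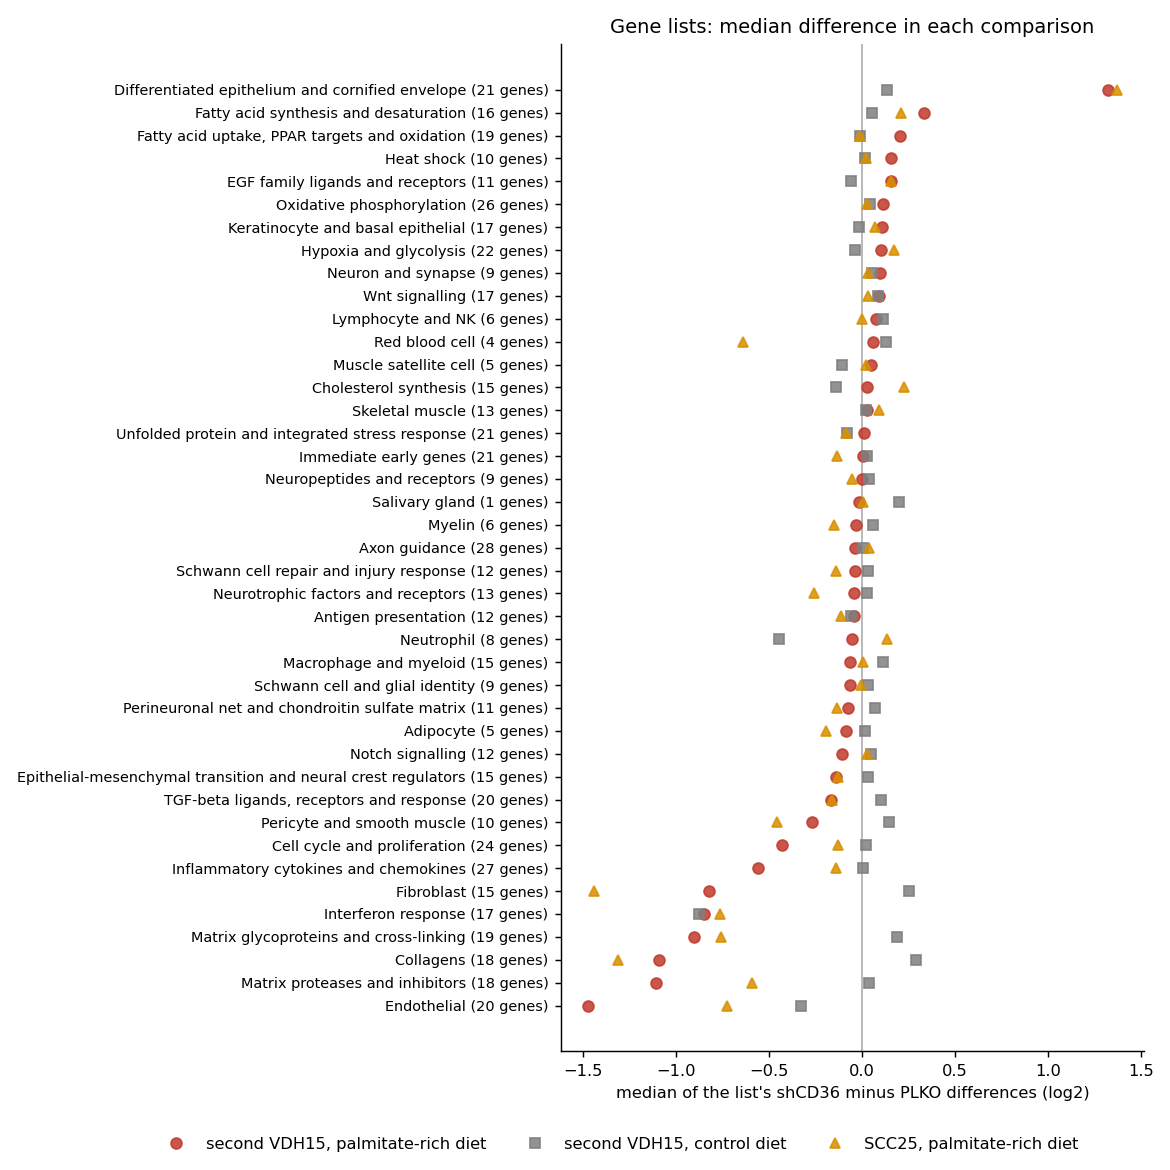
Median over the tested genes of each list of the shCD36 minus PLKO difference (log2), for the second VDH15 experiment on the palmitic acid-rich diet (red circles) and on the control diet (grey squares) and for SCC25 on the palmitic acid-rich diet (orange triangles); lists are ordered by the red circles. The endothelial list is lowest at -1.47, the differentiated epithelium highest at 1.33, and most signalling and neural lists lie near 0.

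Schwann cell genes showed no common direction. Of 9 identity genes, 3 were called higher and 1 lower, with a median of -0.07. Erbb3, through which Schwann cells and some epithelia respond to neuregulin, was at 9.09, 8.92 and 9.08 in the shCD36 arrays, against 8.20, 8.61 and 8.68 in the PLKO arrays, a difference of 0.54 ± 0.11 (SE; adjusted p = 0.005). The adhesion molecules L1cam and Cadm4 differed by 0.59 and 0.78, and Ngfr, the low-affinity neurotrophin receptor, was at 7.71, 7.63 and 7.16 in the shCD36 arrays, against 7.78, 8.02 and 7.98 in the PLKO arrays, a difference of -0.42 ± 0.14 (SE; adjusted p = 0.0431). The calls of Cadm4 and Ngfr were each lost when any 1 of 4 of the 6 arrays was left out. Sox10 had a difference of -0.07 ± 0.09 (SE; adjusted p = 0.634). None of 6 myelin genes tested was called (Pmp22 0.18 ± 0.09 (SE; adjusted p = 0.153)).

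Of 12 genes of the Schwann cell repair state, 4 were called lower and 2 higher. Gap43, a protein of growing axons and repair Schwann cells, was at 8.61, 9.53 and 9.20 in the shCD36 arrays, against 10.59, 10.54 and 10.38 in the PLKO arrays, a difference of -1.39 ± 0.18 (SE; adjusted p = 0.00028). The cytokines Il6 and Lif (-0.84) and the matrix protein Tnc (-0.54) were also lower, while Sox2, a factor of immature Schwann cells and of basal epithelium, was at 5.65, 6.05 and 5.86 in the shCD36 arrays, against 4.31, 4.86 and 4.95 in the PLKO arrays, a difference of 1.14 ± 0.18 (SE; adjusted p = 0.00083). All PLKO values of Sox2 lay under the floor, so its size is uncertain. Jun, the central regulator of the repair state, had a difference of -0.05 ± 0.07 (SE; adjusted p = 0.686). In the perineuronal net and chondroitin sulfate list, 3 of 11 genes were called lower and none higher: Chsy1 (-0.73), which builds chondroitin chains, the hyaluronan synthase Has2 (-1.03), and Tnc; Acan (0.10 ± 0.11 (SE; adjusted p = 0.544)) and Vcan (-0.98 ± 0.34 (SE; adjusted p = 0.0508)) were not called, and Ncan, Hapln1 and Tnr lay below the floor.

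Axon guidance genes split in both directions, with 11 of 28 called higher and 9 lower and a median of -0.04. Beside Sema3a, one of the lower genes was the attractant Ntn1 at 6.34, 6.78 and 6.66 in the shCD36 arrays, against 8.35, 7.72 and 7.49 in the PLKO arrays, a difference of -1.26 ± 0.18 (SE; adjusted p = 0.00054). The others were Sema6a (-0.60), Plxnd1, Ephb4 (-0.61), Ntn4 (-0.46), Unc5b (-0.37), Sema3f (-0.51), and the receptor Nrp1 (-0.75), which endothelium also uses for VEGF. The calls of Sema3f (-0.25, adjusted p = 0.061) and Nrp1 (-0.50, adjusted p = 0.059) were lost without PLKO array 1. The higher ones included the ephrin Efnb2 at 9.68, 9.62 and 9.68 in the shCD36 arrays, against 8.47, 8.70 and 9.07 in the PLKO arrays, a difference of 0.92 ± 0.13 (SE; adjusted p = 0.00037), Sema4a (0.98), Sema4d (0.72), the netrin receptor Unc5c (0.83) and the semaphorin receptors Plxna1 (0.58) and Plxna2 (0.55). Among neurotrophic factors and receptors, Gfra2 (0.79) and Gfra1 (0.54), receptors for neurturin and GDNF, were higher, and Nrg1 (-0.51), Lif and Ngfr lower. The call of Gfra1 was lost without PLKO array 1 (0.54, adjusted p = 0.0834). That of Gfra2 was lost without shCD36 array 2 or 3, and that of Nrg1 without PLKO or shCD36 array 2 or 3. Of the neuropeptide list, Npy was at 6.10, 6.47 and 6.32 in the shCD36 arrays, against 9.02, 7.52 and 7.60 in the PLKO arrays, a difference of -1.75 ± 0.34 (SE; adjusted p = 0.0031), and only it and Calcrl of 9 genes were called. Galanin (Gal), a neuropeptide of injured nerves, was at 6.27, 6.14 and 6.44 in the shCD36 arrays, against 6.07, 6.49 and 6.26 in the PLKO arrays, a difference of 0.01 ± 0.13 (SE; adjusted p = 0.959); its receptors Galr1 (0.00 ± 0.10 (SE; adjusted p = 0.989)) and Galr3 (0.12 ± 0.10 (SE; adjusted p = 0.444)) were not called, and Galr2 lay below the floor. Of 9 neuron genes, Map2 rose (0.80) and Gap43 fell, and Nefl, Nefm and Snap25 lay below the floor.

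Genes of fatty acid use were higher more often than lower. Of 19 genes of uptake, PPAR targets and oxidation, 7 were called higher and 2 lower, with a median of 0.20. Cpt2, which completes the entry of fatty acids into mitochondria, was at 6.97, 7.08 and 6.96 in the shCD36 arrays, against 6.06, 6.12 and 6.29 in the PLKO arrays, a difference of 0.85 ± 0.09 (SE; adjusted p = 9.1e-05), and Cpt1a, which starts it, differed by 0.53. The acyl-CoA dehydrogenases Acadm, Acadvl and Acadl differed by 0.74, 0.49 and 0.29, and the fatty acid transporter Slc27a4 by 0.82. The call of Acadl was lost without PLKO array 1 (0.24, adjusted p = 0.0667). The 2 that were lower were Angptl4, at 9.05, 9.11 and 9.58 in the shCD36 arrays, against 10.68, 10.45 and 10.24 in the PLKO arrays, and Fabp4, a fatty acid binding protein of fat cells and endothelium (-0.87). The receptors Ppara, Ppard and Pparg were not called, with differences of 0.05, 0.16 and -0.16.

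Of 16 genes of fatty acid synthesis and desaturation, 8 were called higher and 2 lower, with a median of 0.34 (0.31, with 9 higher and 2 lower, without PLKO array 1). Acss2, which makes acetyl-CoA from acetate, was at 6.36, 6.46 and 6.58 in the shCD36 arrays, against 4.69, 4.98 and 5.06 in the PLKO arrays, a difference of 1.56 ± 0.29 (SE; adjusted p = 0.0026). All its PLKO values lay under the floor of 5.19, so that size is uncertain. Me1, a source of NADPH, differed by 1.44, Dgat2, which makes triglyceride, by 1.26, Acaca, the first committed enzyme of synthesis, by 0.61, and Elovl4, which extends very long chains for the skin barrier, by 1.67. Fasn (0.06 ± 0.10 (SE; adjusted p = 0.701)) and Scd1 (0.01 ± 0.14 (SE; adjusted p = 0.955)) were not called, and the desaturases Fads1 (-0.61) and Fads3 (-0.43) were lower. Of 15 cholesterol synthesis genes 4 were called higher, Sc5d (0.72), Fdft1 (0.65), Dhcr7 (0.31) and Sqle (0.40), and none lower. Elovl4 lost its call when any 1 of the shCD36 arrays was left out, Dhcr7 without shCD36 array 1, and Sqle when any 1 array but PLKO array 3 was. The differences without PLKO array 1 were 0.72 for Me1, 0.74 for Dgat2, 0.74 for Elovl4 and -0.39 for Fads1.

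Cell cycle genes were lower in a narrow range. Of 24 tested, 18 were called lower and none higher, with a median of -0.43 (-0.42, with 16 lower, without PLKO array 1). Mcm4, a subunit of the replicative helicase, was at 7.48, 7.46 and 7.42 in the shCD36 arrays, against 8.43, 7.99 and 8.14 in the PLKO arrays, a difference of -0.73 ± 0.10 (SE; adjusted p = 0.00045). The ribonucleotide reductase subunit Rrm2 was at 8.69, 8.72 and 8.72 in the shCD36 arrays, against 9.54, 9.34 and 9.30 in the PLKO arrays. Mki67, the proliferation antigen, differed by -0.32 ± 0.10 (SE; adjusted p = 0.0383), a call lost without PLKO array 1 (-0.34, adjusted p = 0.061). Of 22 hypoxia and glycolysis genes, 7 were called higher and none lower, among them the oxygen sensor Egln3 (0.82), the hexokinase Hk2 (0.93) and Pdk1 (0.54), while Slc2a1 (0.10) and Car9 (-0.38) were not called. Of 26 oxidative phosphorylation genes Ndufc1 (0.42) and Atp5d (0.31) were called higher, and of 21 immediate early genes 1 was called lower, the shear-responsive factor Klf2 (-0.88), while Fos (0.03) and Egr1 (0.00) were not called. Of 21 stress response genes of the endoplasmic reticulum 3 were called higher, Trib3 (0.54), Xbp1 (0.45) and Pdia4 (0.34). The calls of Atp5d (adjusted p = 0.069) and Xbp1 (0.29, adjusted p = 0.0969) were lost without PLKO array 1. Atp5d also lost its call without any 1 shCD36 array, Xbp1 without shCD36 array 1 or 2, and Pdia4 without shCD36 array 2. Wnt5a, a secreted Wnt ligand, was at 8.49, 8.49 and 8.51 in the shCD36 arrays, against 6.94, 7.55 and 7.43 in the PLKO arrays, a difference of 1.19 ± 0.13 (SE; adjusted p = 8.8e-05).

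On the control diet fewer genes differed between shCD36 and PLKO tumours. Of the 12823 genes, 85 were called (0.663%), 16 higher and 69 lower in shCD36. The difference between the 2 diets in the shCD36 effect was called for 1224 genes (9.55%), of which 483 were more positive and 741 more negative on the palmitic acid-rich diet, and for 736 to 1530 genes when 1 of the 12 arrays was left out. The shCD36 and PLKO arrays of the palmitic acid-rich diet enter both this difference and the main comparison, and 1127 of the 1224 genes were called in both. All 12 arrays shared 1 hybridisation batch and 1 scan batch as labelled.

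Some matrix genes had opposite signs on the 2 diets. Col1a1 on the control diet was at 12.65, 12.66 and 12.87 in the shCD36 arrays, against 11.11, 11.76 and 11.48 in the PLKO arrays, a difference of 1.28 ± 0.17 (SE; adjusted p = 0.0028), and the difference between diets was -2.93 ± 0.24 (SE; adjusted p = 0.00015). Col6a3 had a difference of 1.42 ± 0.37 (SE; adjusted p = 0.162) on the control diet, which was not called, and the difference between diets was -3.65 ± 0.53 (SE; adjusted p = 0.0031). Col5a3, a chain of collagen V, was at 10.22, 10.38 and 10.95 in the shCD36 arrays, against 8.74, 8.80 and 9.0 in the PLKO arrays on the control diet, a difference of 1.67 ± 0.20 (SE; adjusted p = 0.0018), and the difference between diets was -3.48 ± 0.28 (SE; adjusted p = 0.00015). Of the 18 collagens, 3 were called higher and none lower with shCD36 on the control diet, with a median of 0.29, and 11 were called for a more negative effect on the palmitic acid-rich diet. Set side by side, the palmitic acid-rich minus control difference of Col1a1 was -0.93 in shCD36 tumours and 2.0 in PLKO tumours, and that of Col6a3 was -0.56 in shCD36 tumours and 3.09 in PLKO tumours. Lox, Mmp3 and Postn followed, with differences between diets of -2.84 ± 0.52 (SE; adjusted p = 0.0076), -2.80 ± 0.50 (SE; adjusted p = 0.0065) and -2.80 ± 0.29 (SE; adjusted p = 0.00064).

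The calprotectin genes ran the other way. S100a8 on the control diet was at 5.04, 6.17 and 4.72 in the shCD36 arrays, against 7.27, 6.58 and 6.71 in the PLKO arrays, a difference of -1.54 ± 0.32 (SE; adjusted p = 0.0632), and the difference between diets was 3.84 ± 0.46 (SE; adjusted p = 0.0011). S100a9 followed with 3.08 ± 0.54 (SE; adjusted p = 0.0063), Wfdc18 with 3.78 ± 0.61 (SE; adjusted p = 0.0048) and Adam28 with 2.48 ± 0.22 (SE; adjusted p = 0.00026). Pla2g4f, a phospholipase of epithelium, had 2.25 ± 0.65 (SE; adjusted p = 0.0493), with PLKO array 1 on the palmitic acid-rich diet its lowest value. Il33, an alarmin stored in the nucleus of epithelial cells, was at 5.97, 7.03 and 7.12 in the shCD36 arrays, against 8.61, 8.61 and 8.42 in the PLKO arrays on the control diet, a difference of -1.84 ± 0.24 (SE; adjusted p = 0.0027), and the difference between diets was 2.24 ± 0.34 (SE; adjusted p = 0.0036).

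**Figure D4:**
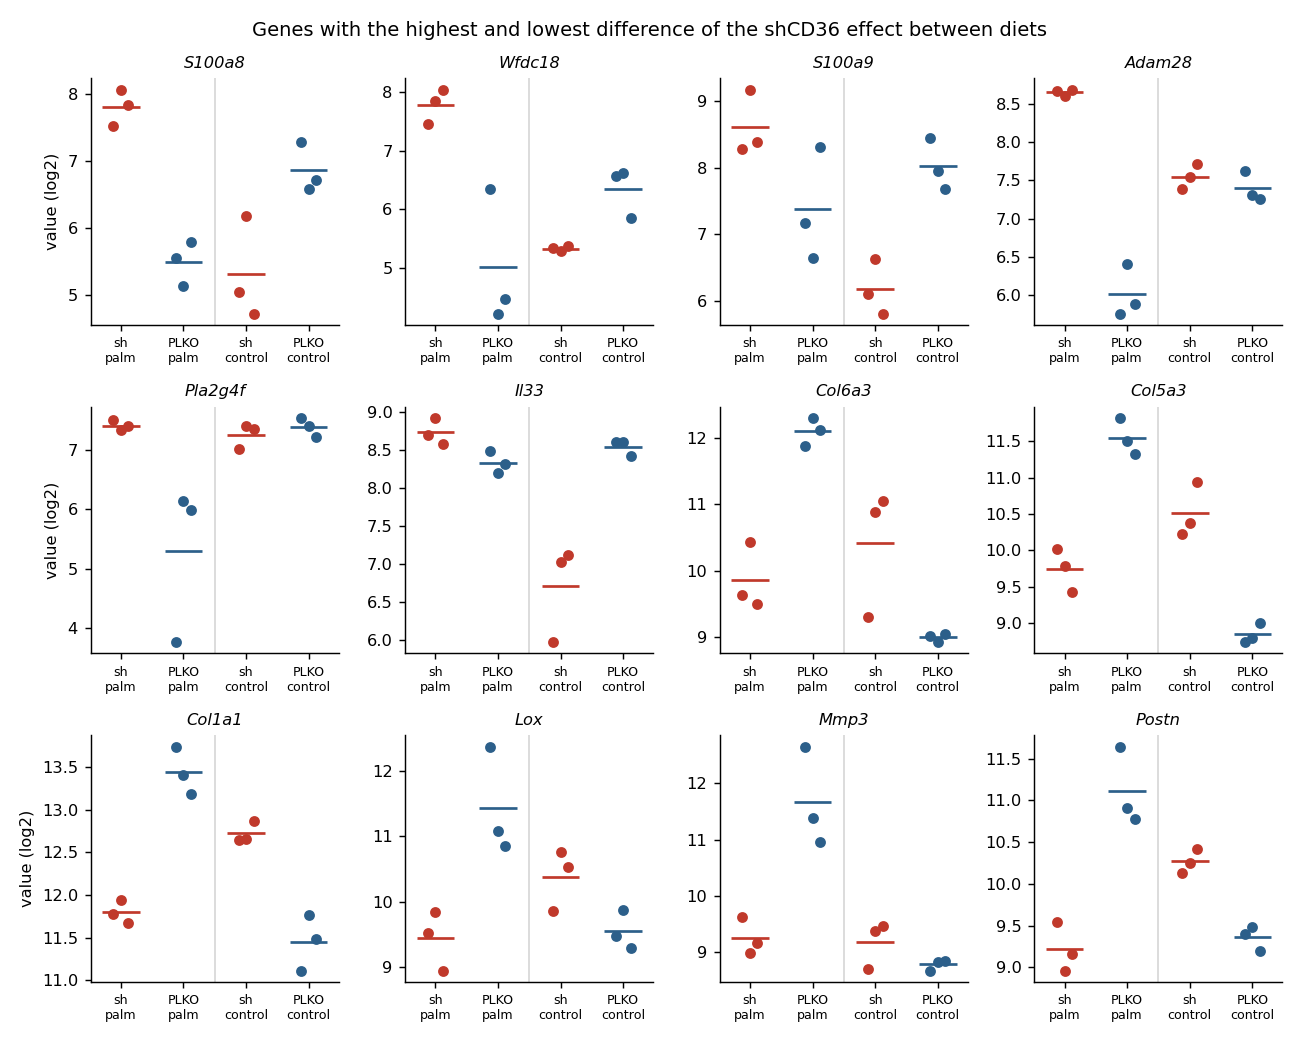
Log2 value on each array (points) and group mean (lines) for the 12 genes with the highest and lowest difference of the shCD36 effect between diets in the second VDH15 experiment; sh and PLKO on the palmitic acid-rich diet stand left of sh and PLKO on the control diet. Col1a1, Col5a3 and Col6a3 are lower with shCD36 on the palmitic acid-rich diet and higher with it on the control diet.

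Interferon genes differed on both diets. On the control diet, 10 of the 17 were called lower with shCD36, and the median was -0.85 on the palmitic acid-rich diet and -0.88 on the control diet, and 2 were called for a more negative and 1 for a more positive effect on the palmitic acid-rich diet. Ifit1 differed by -1.36 on the palmitic acid-rich diet and by -1.28 on the control diet, and Ccl5 by -2.41 and -2.54. The endothelial list had a median of -0.33 on the control diet with none of 20 called, and 16 genes were called for a more negative effect on the palmitic acid-rich diet. For the cell cycle list these values were 0.02, 0 of 24 called, and 10 genes.

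SCC25 tumours gave the same contrast in another biological replicate and another cell line. On the palmitic acid-rich diet 1859 genes were called in SCC25 (14.5%), 895 higher and 964 lower in shCD36. Of the 3203 genes called in the second VDH15 experiment, 987 were called in SCC25 in the same direction, 480 higher and 507 lower, which is 30.8% of the VDH15 calls and 53.1% of the SCC25 calls. Another 52 were called in opposite directions, and 2576 of the 3203 had the same sign in SCC25. The share of all genes tested with the same sign was not counted, so that number is not set against a background. Across genes, which are not independent replicates, the differences of the 2 experiments had a Pearson correlation of 0.57.

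Among the genes called in both with the greatest differences, in SCC25 Col6a3 differed by -2.36 ± 0.34 (SE; adjusted p = 0.00023), Lox by -2.67 ± 0.26 (SE; adjusted p = 5.7e-06) and Postn by -2.01 ± 0.21 (SE; adjusted p = 1.3e-05). Ccrl2, a non-signalling receptor for the attractant chemerin, differed by -2.0 in the second VDH15 experiment and by -1.84 in SCC25, Fgl2 by -2.39 and -1.80, and Dio2, which activates thyroid hormone, by -1.66 and -1.84. On the higher side, Serpinb3a differed by 2.36 and 2.31, Krt10 by 2.02 and 1.71, Krtdap by 1.80 and 1.95, and Abca12, the lipid transporter of the skin barrier, by 1.69 and 1.66. The second VDH15 differences without PLKO array 1 were -1.09 for Dio2, 1.19 for Krtdap and 1.01 for Abca12, whose PLKO values all lay under the floor. Of the collagens 15 of 18 were called lower in SCC25 with a median of -1.31, of the endothelial genes 17 of 20 (-0.73), of the interferon genes 13 of 17 (-0.76) and of the fibroblast genes 12 of 15 (-1.44), and of the differentiated epithelium 13 of 21 were called higher (1.37). Other lists differed in their counts. Of the genes of fatty acid uptake, PPAR targets and oxidation 7 of 19 were called higher and 2 lower in the second VDH15 experiment (median 0.20), against 2 higher and 5 lower in SCC25 (-0.01). Of the cytokines and chemokines 6 of 27 were called higher and 8 lower in SCC25 (-0.14). The difference of a list between experiments was not tested.

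**Figure D5:**
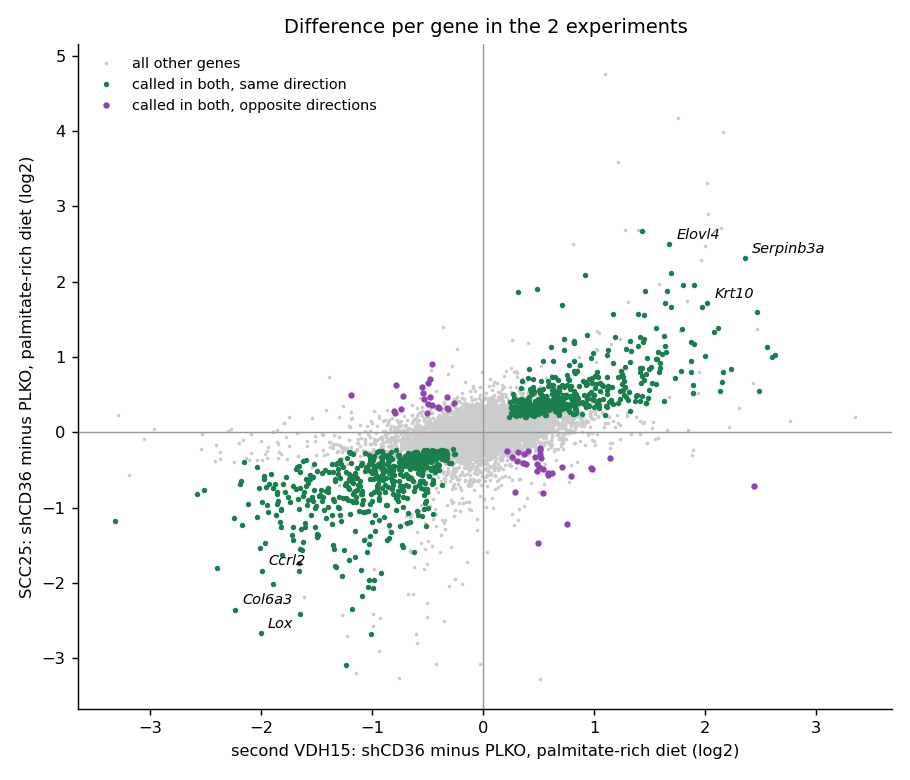
shCD36 minus PLKO difference on the palmitic acid-rich diet for each of the 12823 genes in the second VDH15 experiment (horizontal) and in SCC25 (vertical), both log2; green points were called in both in the same direction and purple points in opposite directions. The 987 green points outnumber the 52 purple ones, and many genes with large differences in the second VDH15 experiment lie near 0 in SCC25.

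The difference between the 2 experiments was called for 1325 genes (10.3%), 547 more positive and 778 more negative in the second VDH15 experiment. Acod1 differed by 0.23 in SCC25, and the difference between experiments was -3.52 ± 0.30 (SE; adjusted p = 4.2e-07). Sema3a, Reln, Rsbn1l and Cxcl11 followed, with -3.0 ± 0.43 (SE; adjusted p = 0.00014), -2.97 ± 0.29 (SE; adjusted p = 1.7e-06), -2.62 ± 0.31 (SE; adjusted p = 2.3e-05) and -2.51 ± 0.47 (SE; adjusted p = 0.0016). Krt36 was the lowest, with a difference of 1.10 in VDH15 and 4.75 in SCC25. On the positive side, Pdk4 was higher with shCD36 in VDH15 and lower, by 0.71 on the log2 scale, in SCC25 (difference 3.15 ± 0.48 (SE; adjusted p = 0.00024)), and Sprr3 and Wfdc18 had small SCC25 differences of 0.21 and 0.15. Alas2, the first enzyme of heme synthesis in red cells, and the fibroblast genes Dpt and Lum were lower in SCC25 (-3.27, -3.08 and -2.79) and not called in VDH15. Cell cycle genes had a median of -0.13 in SCC25, with 1 of 24 called higher and none lower.

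When each group of technical replicates was averaged to 1 value, so that the 8 averages of the 2 experiments (2 hairpins on 2 diets in each) were the units and n = 2 biological replicates a side, 115 genes were called on the palmitic acid-rich diet (0.897%), 79 higher and 36 lower in shCD36. The smallest adjusted p was 0.0227, and 2629 genes had an unadjusted p under 0.05 in limma, of which 1815 were among the 3203 genes called above with the same sign. The averages include the second VDH15 arrays that gave those calls, so this overlap is partly built in and is not independent support. Col6a3 (-2.30 ± 0.14 (SE; adjusted p = 0.0227)), Postn (-1.95 ± 0.18 (SE; adjusted p = 0.0238)), Col5a3 (-1.72 ± 0.15 (SE; adjusted p = 0.0238)), Lox (-2.34 ± 0.28 (SE; adjusted p = 0.0328)), Serpinb3a (2.34 ± 0.27 (SE; adjusted p = 0.0307)), Rbp2 (1.82 ± 0.18 (SE; adjusted p = 0.0261)) and Krtdap (1.88 ± 0.18 (SE; adjusted p = 0.0242)) were among the 115. Col1a1 (-2.04 ± 0.53 (SE; adjusted p = 0.122)) and Ifit2 (-2.24 ± 0.76 (SE; adjusted p = 0.187)) were not called in that test. Without the shCD36 average of the second VDH15 experiment limma called 0 genes, with 1229 at an unadjusted p under 0.05, and without the PLKO average of SCC25 it called 0, with 2570; without the PLKO average of the second VDH15 experiment it called 46.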

How the data were processed

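The arrays were designed for mouse transcripts, and the RNA came from the neural fraction of xenograft stroma. Whether human transcripts also bound to them was not tested. The deposited values are log2 expression made with RMA and affy, per the submitters' processing notes, for 45141 probe sets on 36 arrays. In 100% of probe sets the deposited log2 values had no remaining effect of the labelled hybridisation batch beside diet and hairpin, which shows an adjustment before deposit; the 12 arrays of the second VDH15 experiment share 1 batch. Of the probe sets, 28898 carry 1 gene symbol, 551 carry several and 15692 none. Only those with 1 symbol were used, with the probe set of highest mean for each of 17097 genes. The 25% with the lowest mean over all arrays (under 5.19) were left out, leaving 12823.

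limma 3.58.1 (R 4.3.3) fitted the 4 group means of the 12 arrays; the difference between diets came from the same fit, that between experiments from 24 arrays, and the test over both experiments from 8 averages with experiment as a term. Called means a Benjamini-Hochberg adjusted p under 0.05 over all genes tested. The fit was tested on simulated data. Genes were named as the 15 highest and 15 lowest among those called with no overlap of arrays, the 6 highest and 6 lowest of each difference of differences, the 10 in each direction called in both experiments, and the 4 with the smallest p of each of 41 lists; Cd36 and the galanin genes were always read, and further list members were added as examples after their values were seen. The members and lists were chosen with earlier results of these data known. A list's level is the median over its tested genes on an array. The number of arrays limits the precision. Same-numbered arrays of the groups did not deviate together (correlations 0.058, -0.0552 and -0.0396), so array numbers were not used as pairs. Promoter stretches are from RefSeq, matched by symbol. Alternatives were other filters, probe set means, quantile normalization again, robust and trended variances, array weights, array sets and arrays left out in turn.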

Additional observations from a re-analysis of the deposited data

Results flagged for a closer look

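For 12 genes the shCD36 effect differed between the diets of the second VDH15 experiment by a test of that difference. The palmitic acid-rich minus control difference of the effect was 3.84 for S100a8, 3.78 for Wfdc18, 3.08 for S100a9, 2.48 for Adam28, 2.25 for Pla2g4f and 2.24 for Il33 on the positive side. On the negative side it was -3.65 for Col6a3, -3.48 for Col5a3, -2.93 for Col1a1, -2.84 for Lox, -2.80 for Mmp3 and -2.80 for Postn. All 12 values are log2 differences of differences with adjusted p under 0.05 in limma. Without PLKO array 1 on the palmitic acid-rich diet all 12 kept an adjusted p under 0.05.

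For 12 genes, of which Wfdc18 is also named above, the effect on the palmitic acid-rich diet differed between the second VDH15 experiment and SCC25. The second VDH15 minus SCC25 difference was 3.78 for Alas2, 3.15 for Pdk4, 3.15 for Sprr3, 3.05 for Dpt, 2.61 for Wfdc18 and 2.20 for Lum, and on the negative side -3.65 for Krt36, -3.52 for Acod1, -3.0 for Sema3a, -2.97 for Reln, -2.62 for Rsbn1l and -2.51 for Cxcl11. Krt36 and Dpt were not called in the second VDH15 experiment, and their VDH15 differences were 0.10 and 0.79 without PLKO array 1, against 1.10 and -0.03 with it. Alas2 and Lum were not called in the second VDH15 experiment either. The 2 experiments differ in cell line, hybridisation batch and tumour, and these cannot be told apart.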

How the results depend on the processing

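The counts of genes called on the palmitic acid-rich diet, 1551 higher and 1652 lower, stayed within 1.5 times under 8 of the 9 settings other than leaving out an array. The exception was a fit of the 6 arrays alone, with 835 higher and 1140 lower. It took the spread from those 6 arrays, and the main fit from all 12 arrays of the experiment. Arrays of the control diet had mean correlations of 0.99 to 0.993 with their own group. On the palmitic acid-rich diet these were 0.972 to 0.982 for PLKO and 0.99 to 0.991 for shCD36. Why the counts fell was not tested. Leaving out 1 array gave 1091 to 1518 higher and 1324 to 1657 lower. The count for the difference between diets (1224) was 1862 with all 36 arrays in the fit and 736 to 1530 with 1 array left out: 736 without PLKO array 1 and 745, 754 and 809 without shCD36 arrays 1, 2 and 3, all of the control diet, and 807 and 767 without shCD36 arrays 1 and 3 of the palmitic acid-rich diet. The count for the difference between experiments (1325) was 626 from the 6 arrays of each comparison and 973 to 1561 with 1 array left out. Genes called in the same direction in both (987) numbered 645 from the 6 arrays, 611 with all 36 arrays, and 784 to 1029 with 1 left out. The 115 genes of the averages became 175 with trended and robust variances, 48 with all 11 averages, and 0 to 138 with 1 average left out. With the array number as a replicate block the counts were 1377 higher, 1548 lower, 1011 for the diets, 1260 for the experiments and 910 in both; the numbers do not pair the arrays. The causes were not tested. No result changed sign while called, among 197 named genes and the counts. Without PLKO array 1, 184 of the 197 named genes kept their side of the threshold, 10 lost their call and 3 gained one; without shCD36 array 1, 2 or 3, 18, 16 and 17 lost it, among them Sptssb, Rptn and Elovl4 each time. The median of all genes moved by less than 0.1 on the log2 scale in every setting. Genes near the floor are limited by array background.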

Other observations

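Several single genes outside the groups described above were called. H2-Ab1, a chain of the MHC class II molecule of antigen-presenting cells, was at 9.94, 10.08 and 10.10 in the shCD36 arrays, against 7.82, 7.65 and 10.23 in the PLKO arrays, a difference of 1.47 ± 0.50 (SE; adjusted p = 0.0494), but none of the other 11 antigen presentation genes was called and H2-Aa, the partner chain, was at 7.82, 8.08 and 7.97 in the shCD36 arrays, against 7.66, 7.95 and 8.23 in the PLKO arrays. For H2-Ab1 the groups overlapped, since PLKO array 3 lay above all shCD36 arrays, and the call was lost without PLKO array 1 (1.10, adjusted p = 0.161). Ereg, an EGF family ligand, differed by 1.17 ± 0.36 (SE; adjusted p = 0.0313) and by 0.71 without PLKO array 1 (adjusted p = 0.0892), while Btc, another ligand of that family, was at 6.03, 5.90 and 5.65 in the shCD36 arrays, against 4.78, 5.37 and 4.90 in the PLKO arrays, a difference of 0.85 ± 0.15 (SE; adjusted p = 0.002). Of 10 heat shock genes 4 were called higher and Dnaja1 (-0.35) lower; without PLKO array 1, 1 was called higher and 1 lower. Vcam1, the adhesion molecule by which activated endothelium holds leukocytes, was at 8.39, 8.06 and 8.20 in the shCD36 arrays, against 9.64, 8.99 and 9.04 in the PLKO arrays, a difference of -1.01 ± 0.17 (SE; adjusted p = 0.0014). Of 12 Notch genes, Dll1 (0.83), Notch2 (0.47) and Notch3 (0.52) were called higher, and Hey1 (-0.83), Notch1 (-0.28), Notch4 and Dll4 lower. The secreted Wnt inhibitors Sfrp1 and Sfrp2 differed by -0.72 and -0.93, and the receptors Fzd6 and Fzd7 by 0.57 and 0.55. The calls of Notch1 (-0.22, adjusted p = 0.118), Sfrp1 (-0.51, adjusted p = 0.0888) and Fzd7 (0.37, adjusted p = 0.148) were lost without PLKO array 1.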
